A study of Mus musculus with 3 samples.

Results

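The 10 genes described here are regulators of photoreceptor fate, chosen by name for this role. Crx, Otx2, Neurod1 and Rorb act in photoreceptors in general, Thrb, Rxrg and Rora in cones, and Nrl, Nr2e3 and Samd7 in rods. They are 10 of the 31053 genes in the deposited count table, of which 22294 had a count in a well that was kept. Each was read in single GFP-positive cells sorted as cones from mouse retina, labelled as postnatal day 12 in each line, in wells that had 500 or more genes counted and no more than 30% of their counts on genes of the mitochondrial genome.

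The libraries came from Pde6ccpfl1 mice, which carry a mutation of the catalytic subunit of the cone phosphodiesterase, from Cnga3-/- mice, which lack a subunit of the cone cyclic nucleotide-gated channel, and from wildtype mice. The series concerns the migration of cones in healthy and in degenerating retina. GFP marked cones in each line, and the wildtype library is named for the reporter Chrnb4-GFP. The labels do not name the reporter carried by the mutant lines, the number of animals behind a plate or their sex. All cells went through papain digestion, a dead cell stain and a sorter, and each line filled 1 plate of 96 wells. The well names also carry the tag P10 in Pde6ccpfl1, P08 in Cnga3-/- and P11 in wildtype. Its meaning is not given in the sources used here, and a difference in age between the plates cannot be told apart from genotype.

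Photoreceptor precursors are set apart by the homeodomain proteins Otx2 and Crx, and in the mouse the choice between rod and cone then turns on Nrl, a leucine zipper factor without which would-be rods become cone-like cells. Nrl acts through Nr2e3, an orphan nuclear receptor that represses cone genes in rods. In cones the ligand-dependent receptors Thrb and Rxrg set which opsin is made, and the orphan receptors Rora and Rorb act with Crx on the opsin promoters.

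Crx and Otx2 bind DNA with the core TAATCC, and Rora and other nuclear receptors bind half-sites with the core AGGTCA. Windows of 300 bases around RefSeq transcription starts, 250 before and 50 after, were searched on both strands for these letters. The 10 genes had 16 windows, since some have several starts. TAATCC was present in 7.06% of all 32851 windows and in 4 of these 16, from Crx, Otx2, Samd7 and Thrb. AGGTCA was present in 16.3% of all windows and in 2 of the 16, from Rxrg and Thrb. The E-box CANNTG, bound by Neurod1 and many other factors, was in 72.3% of all windows and in 11 of the 16, from 8 of the 10 genes. The 4 windows that follow are those of Rora, which the results turn on, and of Crx, Samd7 and the first Thrb start, the genes with the core that were higher in both mutants than in wildtype. Each is written 5′ to 3′ on the strand of its gene in build GRCm38.p6. Capitals mark GGATTA, which is TAATCC read on the other strand, and AGGTCA. The Rora window (chr9:68653536-68653835, plus strand) holds none of the 3 motifs. That of Crx (chr7:15879906-15880205, minus strand) holds GGATTA at 94 and at 21 bases before the start, that of Samd7 (chr3:30746043-30746342, plus strand) at 139 bases before it, and that of Thrb (chr14:17660710-17661009, plus strand) at 46 bases before it, with AGGTCA at 184. These matches are letters in a sequence and were not tested as binding sites.
Rora: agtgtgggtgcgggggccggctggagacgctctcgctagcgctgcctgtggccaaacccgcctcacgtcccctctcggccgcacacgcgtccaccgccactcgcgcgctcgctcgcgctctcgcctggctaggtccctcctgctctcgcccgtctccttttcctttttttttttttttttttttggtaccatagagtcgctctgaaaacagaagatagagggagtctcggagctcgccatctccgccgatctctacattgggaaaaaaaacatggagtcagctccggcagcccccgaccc
Crx: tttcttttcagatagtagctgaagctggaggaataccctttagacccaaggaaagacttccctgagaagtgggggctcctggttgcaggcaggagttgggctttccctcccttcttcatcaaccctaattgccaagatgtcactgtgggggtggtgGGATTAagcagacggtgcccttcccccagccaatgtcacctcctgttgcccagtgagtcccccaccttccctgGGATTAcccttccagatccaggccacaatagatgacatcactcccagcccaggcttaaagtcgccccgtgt
Samd7: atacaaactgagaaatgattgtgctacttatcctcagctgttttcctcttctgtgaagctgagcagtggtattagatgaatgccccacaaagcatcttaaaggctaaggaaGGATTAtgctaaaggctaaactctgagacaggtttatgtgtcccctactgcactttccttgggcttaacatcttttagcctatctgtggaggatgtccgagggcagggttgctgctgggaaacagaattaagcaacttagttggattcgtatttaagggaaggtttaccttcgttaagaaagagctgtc
Thrb: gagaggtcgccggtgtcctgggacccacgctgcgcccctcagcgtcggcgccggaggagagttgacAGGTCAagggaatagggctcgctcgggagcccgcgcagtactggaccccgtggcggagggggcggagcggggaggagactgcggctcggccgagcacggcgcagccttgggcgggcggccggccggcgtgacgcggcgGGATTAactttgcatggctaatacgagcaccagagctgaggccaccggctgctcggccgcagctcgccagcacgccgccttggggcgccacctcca

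The Pde6ccpfl1 plate kept 61 of 71 deposited wells, the Cnga3-/- plate 70 of 76 and the wildtype plate 52 of 61. Kept wells summed to 295011, 335499 and 273080 counts in that order of libraries, and their median depth was 3796, 4056.5 and 4895 counts. Values are given as counts, as CPM (counts scaled to a library total of 1000000) or as CPM per kilobase of annotated exon, the only scale on which levels of different genes are set side by side. With 1 library per genotype there is no test, wells of a plate are not replicates, and genotype and plate cannot be told apart. Intervals are exact 95% intervals that cover counting error only. The cells were labelled cones, and 12 cone markers summed to 218 counts in Pde6ccpfl1 and 259 in Cnga3-/-, against 53 in wildtype, which is 18.7, 19.5 and 4.91 CPM per kilobase. Opn1sw, Gnat2, Gngt2, Pde6c and Cngb3 were at 0 in wildtype, and Cngb3 was also at 0 in Pde6ccpfl1. Olfactory receptor genes, which serve smell and mark no retinal cell, stood at 4.16, 3.61 and 4.50 CPM per kilobase. As a sum, the cone markers of the wildtype library were therefore near the level of genes that cones are not known to use. By single genes the 2 lists differed in wildtype, with medians of 1.96 and 0 CPM per kilobase and 95th percentiles of 14.3 and 11.5. A cone marker was counted in 21 of 52 wildtype wells, against 56 of 61 in Pde6ccpfl1 and 60 of 70 in Cnga3-/-. Cnga3 itself had 3 counts in Pde6ccpfl1 and 13 in Cnga3-/-, against 22 in wildtype, and Pde6c had 2 and 5, against 0. Whole-gene counts do not show whether the mutated part was read, so they check no genotype. How the difference in marker level bears on the results was not tested.

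Wells at the same position of different plates resembled each other. Over the 1500 most abundant genes, each well's best match in another plate was the well at its own position in 43 of 43 shared positions for Pde6ccpfl1 and wildtype, in 50 of 50 for Cnga3-/- and wildtype, and in 61 of 61 for Pde6ccpfl1 and Cnga3-/-. The median correlation of same-position wells was 0.34, 0.36 and 0.33 in those pairs, and near 0 for wells at other positions. After thinning each well to 1400 counts the same-position well was still the best match in 38 of 38, 45 of 45 and 53 of 53. The total counts of the wells also ran together by position, with Spearman correlations of 0.70, 0.78 and 0.82. The plates can thus not be treated as fully separate samples, and why they share profiles was not tested. No kept Pde6ccpfl1 well, 2 Cnga3-/- wells and 2 wildtype wells were at a position kept in no other plate. Rora is also given without position G05 and Samd7 without position D01, which were both kept in the mutant plates and not in wildtype.

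**Figure D1:**
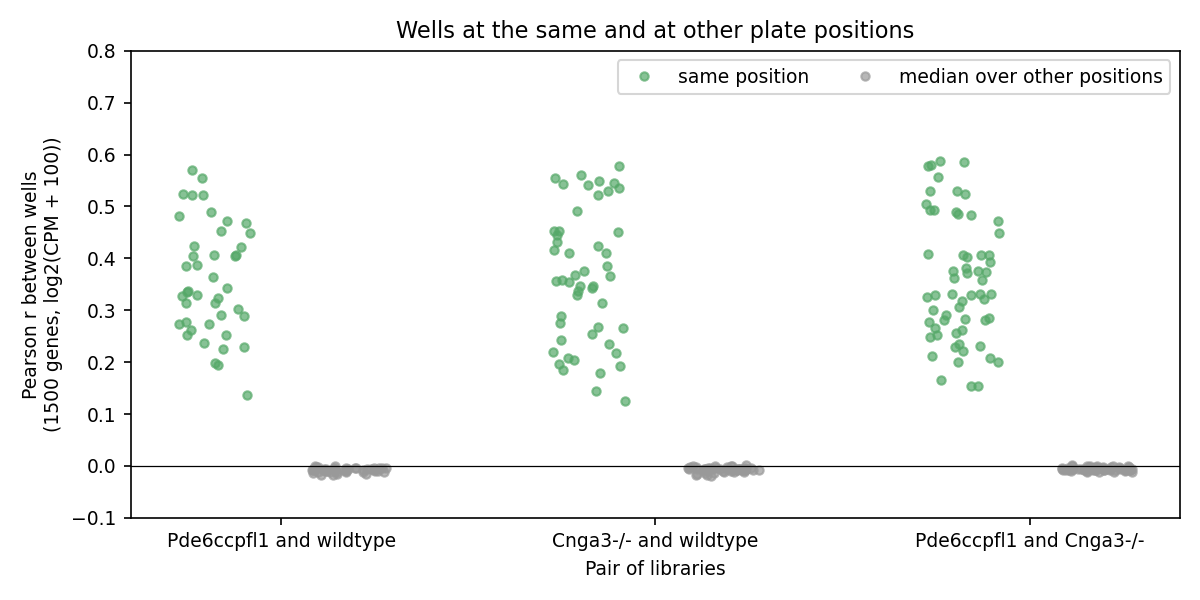
Correlation of each well's profile (vertical axis, Pearson r over 1500 genes) with the well at the same position of another plate (green) and its median over wells at other positions (grey), for 3 pairs of libraries (horizontal axis). All same-position values lie above 0.1 and all medians over other positions lie near 0.

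Rora, an orphan nuclear receptor that in the mouse activates cone opsin and arrestin genes, was the most counted of the 10 genes and stood higher in both mutant libraries than in wildtype. It had 566 counts in Pde6ccpfl1 and 440 in Cnga3-/-, against 60 in wildtype. These are 1919 CPM (1764 to 2083), 1311 CPM (1192 to 1440) and 220 CPM (168 to 283), and the 3 intervals do not overlap. The gene (ENSMUSG00000032238) lies on chromosome 9, 68653786 to 69388246 on the plus strand in the GENCODE annotation of GRCm38, with 13071 exon bases. Per kilobase its level was 147 CPM in Pde6ccpfl1 and 100 in Cnga3-/-, against 16.8 in wildtype. This scale takes the counts as exon counts, which the sources used here do not state, and the gene spans 734461 bases. The 95th percentile of olfactory receptor genes was 11.4, 12.1 and 11.5 CPM per kilobase, so Rora lay above that value in each library. Below it a gene is described here as within the range of olfactory receptor genes. Besides Rora, the genes above it were Samd7 and Crx in both mutants and Neurod1, at 14.2 CPM per kilobase, in Cnga3-/-, and no other gene passed it in wildtype. The intervals of Crx and Neurod1 included that value, and those of Rora and Samd7 in the mutants did not. Without the well of its highest count, Samd7 stood at 14.5 CPM per kilobase in Pde6ccpfl1, from 17 counts, and at 25.6 in Cnga3-/-. Neurod1 in Cnga3-/- then stood at 9.95, below that value.

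The Rora log2 ratio of CPM was 3.13 (2.74 to 3.54) for Pde6ccpfl1 over wildtype, an 8.73-fold higher level. It was 2.58 (2.19 to 2.99), or 5.97-fold, for Cnga3-/- over wildtype. Pde6ccpfl1 over Cnga3-/- gave 0.55 (0.37 to 0.73), or 1.46-fold. The first 2 ratios share the wildtype library, so that their common direction is not independent. Of 1600 genes with at least 50 counts over Pde6ccpfl1 and wildtype and a count in 20% of the wells of either, 10.2% were higher by 2-fold or more and 15.2% lower by as much in Pde6ccpfl1, and Rora, the 1 regulator that passed, ranked 81. Between Cnga3-/- and wildtype 11.2% of 1723 genes were higher by that much and 11.7% lower, and both regulators that passed, Rora and Samd7, were among the higher ones, at ranks 96 and 106. Samd7 passed only through the Cnga3-/- library, where it was high, so that its place among the higher genes carries no weight. Between Pde6ccpfl1 and Cnga3-/- 6.44% of 1693 genes were higher and 9.33% lower, and Rora and Samd7 were both within 2-fold.

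**Figure D2:**
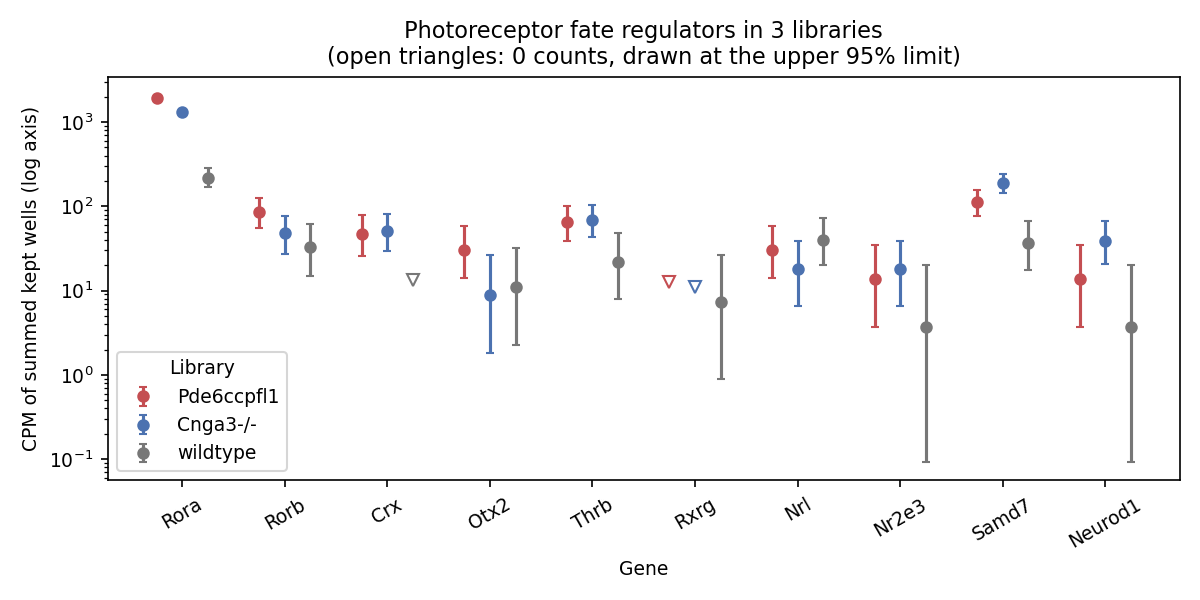
Level of each regulator (vertical axis, CPM on a log scale) in the summed wells of the Pde6ccpfl1, Cnga3-/- and wildtype libraries, with exact 95% Poisson intervals. Rora stands at 1919, 1311 and 220 CPM, and the other genes lie under 200 CPM in each library.

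In single wells Rora was counted in 58 of 61 Pde6ccpfl1 wells (95.1%, 86.3 to 99.0) and 65 of 70 Cnga3-/- wells (92.9%, 84.1 to 97.6), against 35 of 52 wildtype wells (67.3%, 52.9 to 79.7). Thinned to 1400 counts per well, with shallower wells left out, 47 of 54 Pde6ccpfl1 wells (87.0%) and 47 of 65 Cnga3-/- wells (72.3%) held it, against 10 of 48 wildtype wells (20.8%). The wildtype wells were the deeper ones by median, and the order of the shares was the same with and without thinning. The lowest well held 0 counts in each library, the median well 6, 4 and 1, and the highest 166, 160 and 4 in the order Pde6ccpfl1, Cnga3-/- and wildtype. Most mutant wells thus held a few counts each, and 1 well in either mutant stood far above the rest, since the second highest held 23 in Pde6ccpfl1 and 14 in Cnga3-/-.

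The highest Rora well was at position G05 in both mutant plates. It held 166 of 2201 counts in Pde6ccpfl1 and 160 of 1862 in Cnga3-/-, and there was no G05 well in the wildtype table. The same 3 other genes led both wells, a feature singled out after the values were seen. Lpcat2, a lysophospholipid acyltransferase, had 174 and 140 counts there, the RNA-binding protein gene Rbm10 had 99 and 65, and the predicted gene Gm28518 had 90 and 89. Without G05, Rora had 400 counts in Pde6ccpfl1 and 280 in Cnga3-/-, against 60 in wildtype. The log2 ratio was then 2.64 for Pde6ccpfl1 over wildtype, 1.93 for Cnga3-/- over wildtype and 0.70 for Pde6ccpfl1 over Cnga3-/-. Both ratios to wildtype stayed above 1, and the Cnga3-/- ratio moved by over 1.5-fold. Over all genes with at least 10 counts the 95th percentile of the log2 ratio was 2.21 for Pde6ccpfl1 over wildtype and 2.34 for Cnga3-/- over wildtype. The Pde6ccpfl1 ratio lay above it with and without G05, whereas the Cnga3-/- ratio lay above it only with G05. The Cnga3-/- ratio was also below it in positions kept in all 3 plates (2.03). With the stricter well filter of 1000 genes and at most 15% mitochondrial counts it was 1.96. Neither is a separate check on G05. The shared positions do not include G05, and the stricter filter left 260 Cnga3-/- Rora counts, fewer than the 280 without G05.

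**Figure D3:**
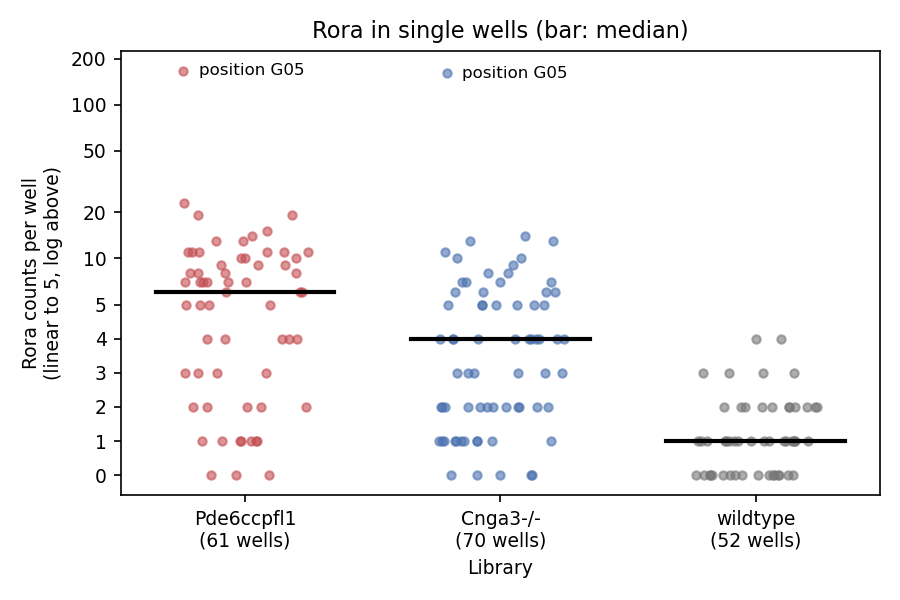
Rora counts per well (vertical axis, linear to 5 and logarithmic above) in 61 Pde6ccpfl1, 70 Cnga3-/- and 52 wildtype wells, with each well as a point and the median as a bar. The wells at position G05 hold 166 and 160 counts in the mutant plates, and no wildtype well holds more than 4.

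Set position against position, the Rora difference did not rest on a few wells. In the 43 positions kept in all 3 plates the median Rora level was 1337 CPM in Pde6ccpfl1 wells and 815 CPM in Cnga3-/- wells, against 166 CPM in wildtype wells. Pde6ccpfl1 wells were higher than wildtype wells at 41 positions, lower at 1 and equal at 1. Cnga3-/- wells were higher than wildtype wells at 41 and lower at 2. Pde6ccpfl1 wells were higher than Cnga3-/- wells at 35 and lower at 8. Across wells, the Rora level had little rank relation to that of the counterpart well. Spearman correlations were 0.06 over 43 positions, -0.03 over 50 and 0.14 over 61 in the same pairs as above. They are taken over wells for 1 gene of few counts, and cannot be compared with the profile correlations over 1500 genes. They do not show that Rora is free of the likeness by position, and G05 was the highest Rora well in both mutant plates. These points share plates and depth and are a description. The wells at positions kept in a single plate held 5 Rora counts in Cnga3-/- and 1 in wildtype.

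**Figure D4:**
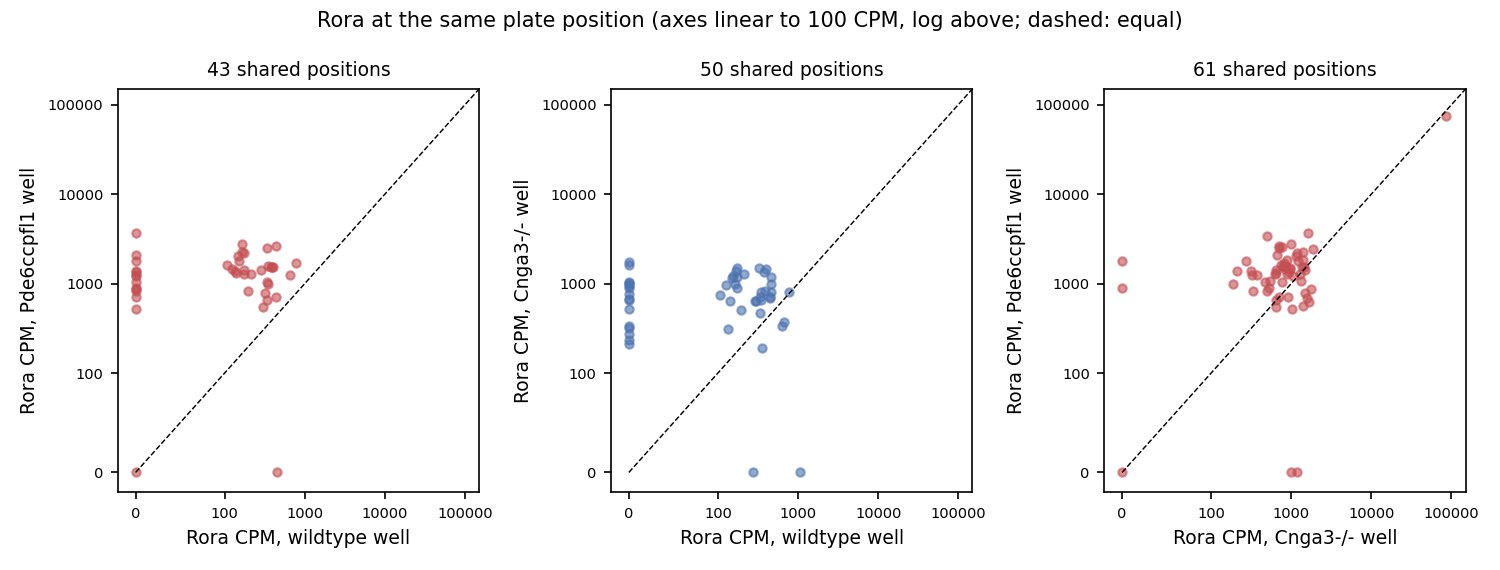
Rora level of wells at the same position in pairs of plates (both axes in CPM, linear to 100 and logarithmic above, dashed line at equal levels), for Pde6ccpfl1 against wildtype, Cnga3-/- against wildtype and Pde6ccpfl1 against Cnga3-/-. Most points lie above the line in the first 2 panels, and the G05 well stands alone at the upper right of the third.

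The other 9 genes summed to 117 counts in Pde6ccpfl1 and 147 in Cnga3-/-, against 43 in wildtype. The log2 ratio of these sums was 1.33 (0.82 to 1.87) for Pde6ccpfl1 over wildtype, 1.48 (0.98 to 2.00) for Cnga3-/- over wildtype and -0.14 (-0.51 to 0.22) for Pde6ccpfl1 over Cnga3-/-. The mutant sums were thus above wildtype and did not differ from each other beyond counting error. Cone and rod regulators both contributed. Position D01 held 18 of the summed counts in Pde6ccpfl1 and 33 in Cnga3-/-. Without D01 the log2 ratio over wildtype was 1.10 (0.57 to 1.65) in Pde6ccpfl1 and 1.13 (0.61 to 1.67) in Cnga3-/-.

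Among the general regulators, Crx stood apart from the rest in that it had no count in wildtype. Crx (chromosome 7, 15865947 to 15879968), which activates both rod and cone genes, had 14 counts in 12 of 61 Pde6ccpfl1 wells and 17 in 12 of 70 Cnga3-/- wells, against 0 in 52 wildtype wells. Set against 3 counts in the wildtype library, the limit that a count of 0 allows, it was at least 4.32-fold higher in Pde6ccpfl1 and at least 4.61-fold higher in Cnga3-/-. After thinning it was in 4 of 54 Pde6ccpfl1 wells (7.41%, 2.06 to 17.9) and 4 of 65 Cnga3-/- wells (6.15%, 1.70 to 15.0). It was in none of 48 wildtype wells, whose exact binomial interval reaches 7.40%. At equal depth the intervals of the mutants thus overlapped that of wildtype, and these few wells do not show a difference. Well B02 held the most Crx in both mutants, with 3 counts in Pde6ccpfl1, 5 in Cnga3-/- and 0 in wildtype, and without it the bounds were at least 3.37-fold and at least 3.21-fold. Per kilobase Crx stood at 15.0 CPM in Pde6ccpfl1 and 16.0 in Cnga3-/-, above the 95th percentile of olfactory receptor genes, with intervals of 8.21 to 25.2 and 9.34 to 25.7 that include it. Without B02 the levels were 12.0 and 11.5, and the second was below it.

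Otx2, the homeodomain factor upstream of Crx (chromosome 14, 48657677 to 48673819), had 9 counts in Pde6ccpfl1 and 3 in Cnga3-/-, against 3 in wildtype. Its log2 ratio was 1.47 (-0.53 to 4.0) for Pde6ccpfl1 over wildtype and 1.77 (-0.23 to 4.29) for Pde6ccpfl1 over Cnga3-/-, so neither difference exceeded counting error. Well C12 held 2 of the counts in Pde6ccpfl1 and 2 in Cnga3-/-, and without the highest well of each library the ratio between the mutants was 3.01 (0.05 to 8.51), from 7 counts against 1. Neurod1, a basic helix-loop-helix factor needed for photoreceptor upkeep (chromosome 2, 79452521 to 79456751), had 4 counts in Pde6ccpfl1 and 13 in Cnga3-/-, against 1 in wildtype. Its log2 ratio was 1.89 (-1.45 to 7.51) for Pde6ccpfl1 over wildtype and 3.40 (0.67 to 8.81) for Cnga3-/- over wildtype, and the second of these lay outside counting error although it rests on 1 wildtype count. Well B02 held 4 of the Cnga3-/- counts, and without the highest well of each library Neurod1 had 9 counts in Cnga3-/-, against 0 in wildtype, at least 2.42-fold higher. Exons of Neurod1 overlap 201 bases of Cerkl on the same strand, so its few counts are uncertain.

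Rorb, the orphan receptor that in mouse retina acts upstream of Nrl (chromosome 19, 18930605 to 19111196), had 25 counts in Pde6ccpfl1 and 16 in Cnga3-/-, against 9 in wildtype. The log2 ratio was 1.36 (0.22 to 2.65) for Pde6ccpfl1 over wildtype and 0.53 (-0.73 to 1.89) for Cnga3-/- over wildtype, and Pde6ccpfl1 over Cnga3-/- gave 0.83 (-0.13 to 1.83). The interval left 0 in the first of these 3 comparisons alone. In thinned wells it did not, with 8 counts in Pde6ccpfl1 against 2 in wildtype and a ratio of 1.83 (-0.50 to 5.10). In positions kept in all 3 plates Pde6ccpfl1 over Cnga3-/- was 1.40 (0.15 to 2.79). Per kilobase it stood at 7.65, 4.31 and 2.98 CPM in Pde6ccpfl1, Cnga3-/- and wildtype, within the range of olfactory receptor genes.

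Of the receptors that set cone opsin choice, Thrb was counted in more mutant than wildtype wells and Rxrg was hardly counted at all. Thrb, the thyroid hormone receptor that in the mouse is required for the medium-wavelength opsin (chromosome 14, 17660261 to 18038090), had 19 counts in 14 Pde6ccpfl1 wells and 23 in 17 Cnga3-/- wells, against 6 in 3 wildtype wells. The log2 ratio was 1.55 (0.17 to 3.16) for Pde6ccpfl1 over wildtype, 1.64 (0.30 to 3.23) for Cnga3-/- over wildtype and -0.09 (-1.05 to 0.85) between the mutants. Well H11 held 3 of the Pde6ccpfl1 counts, none of those in Cnga3-/- and 4 of the 6 in wildtype. Without the highest well of each library, Thrb had 16 counts in Pde6ccpfl1 and 20 in Cnga3-/-, against 2 in wildtype, with log2 ratios of 2.91 (0.82 to 6.07) and 3.04 (0.996 to 6.18) over wildtype. In positions kept in all 3 plates the ratio over wildtype was 1.20 (-0.30 to 2.88) in Pde6ccpfl1, within counting error, and 1.51 (0.10 to 3.14) in Cnga3-/-. In thinned wells Thrb had 5 counts in Pde6ccpfl1 and 6 in Cnga3-/-, against 1 in wildtype, and neither ratio exceeded counting error, at 2.15 (-1.01 to 7.72) and 2.15 (-0.90 to 7.67). Per kilobase Thrb stood at 8.70 and 9.26 CPM in Pde6ccpfl1 and Cnga3-/-, against 2.97 in wildtype, within the range of olfactory receptor genes. Rxrg, the partner receptor that holds down the short-wavelength opsin (chromosome 1, 167598384 to 167639623), had 0 counts in both mutants and 2 in wildtype, and no ratio was formed.

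The rod regulators differed among themselves: Samd7 was higher in the mutants, while Nrl and Nr2e3 were not separated beyond counting error. Nrl (chromosome 14, 55518978 to 55524981) had 9 counts in 6 Pde6ccpfl1 wells and 6 in 4 Cnga3-/- wells, against 11 in 2 wildtype wells. Its log2 ratio was -0.40 (-1.85 to 1.01) for Pde6ccpfl1 over wildtype and -1.17 (-2.89 to 0.39) for Cnga3-/- over wildtype, neither beyond counting error. A single well decided both values, since A04 held the highest Nrl count in each plate, 3 in Pde6ccpfl1, 3 in Cnga3-/- and 10 of the 11 in wildtype. Without the well of the highest count the Pde6ccpfl1 ratio was 2.45 (-0.59 to 7.98), with 6 counts against 1, and Cnga3-/- had 3 counts against 1, too few for a ratio. The sign of the Nrl difference therefore rests on that well. Nr2e3 (chromosome 9, 59942771 to 59960659) had 4 counts in Pde6ccpfl1 and 6 in Cnga3-/-, against 1 in wildtype, with log2 ratios of 1.89 (-1.45 to 7.51) and 2.29 (-0.76 to 7.81) over wildtype. Both genes lay within the range of olfactory receptor genes per kilobase in each library.

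Samd7, a Polycomb-associated protein that in mouse rods silences genes of other photoreceptor types (chromosome 3, 30746293 to 30767174), had the second most counts of the 10 genes in both mutant libraries. It had 33 counts in 16 Pde6ccpfl1 wells and 63 in 21 Cnga3-/- wells, against 10 in 10 wildtype wells, or 28.0, 47.0 and 9.16 CPM per kilobase. The log2 ratio was 1.61 (0.56 to 2.80) for Pde6ccpfl1 over wildtype, 2.36 (1.39 to 3.49) for Cnga3-/- over wildtype and -0.75 (-1.40 to -0.12) for Pde6ccpfl1 over Cnga3-/-. Position D01 held 16 of the Pde6ccpfl1 counts and 29 of the Cnga3-/- counts, and the D01 well of wildtype was not kept. Without D01 the log2 ratio was 0.67 (-0.54 to 1.95) for Pde6ccpfl1 over wildtype and 1.49 (0.44 to 2.67) for Cnga3-/- over wildtype. The Pde6ccpfl1 difference was then no longer beyond counting error, and the difference between the mutants was -0.82 (-1.75 to 0.06).

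With all genes of at least 10 counts considered, most regulators that reached this minimum were higher in the mutants, against a wide background. In Pde6ccpfl1 over wildtype 7 of the 10 genes reached it, of which 6 were at least 2-fold higher, none lower and Nrl within 2-fold, while 15.5% of 7289 genes were higher and 17% lower. In Cnga3-/- over wildtype 7 reached it, with 5 higher, Nrl lower and Rorb within, beside 16.1% of 7739 genes higher and 15.1% lower. In Pde6ccpfl1 over Cnga3-/- 9 reached it, with Otx2 higher, Neurod1 lower and 7 within, beside 10.1% of 7850 genes higher and 14.2% lower. A gene that reached the minimum only through a mutant library had to be higher there, so these counts carry no weight of their own. The median log2 ratio of all these genes was -0.11, -0.13 and -0.01 in the 3 comparisons, and that of the regulators that passed was 1.55, 2.21 and -0.09. The medians of the regulators are taken over the same selected genes and carry no weight of their own either. The value of 2.21 is the lower bound of Crx, which had 0 counts in wildtype.

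**Figure D5:**
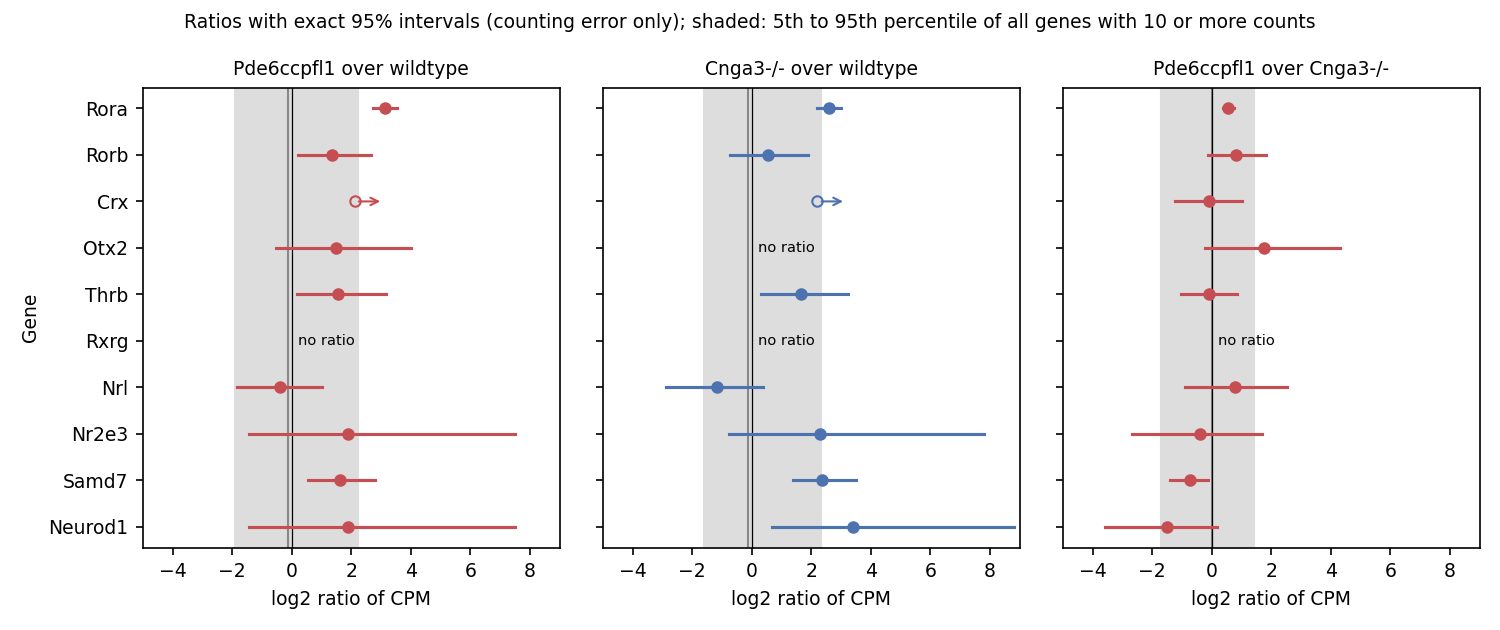
Log2 ratio of CPM (horizontal axis) of each regulator in Pde6ccpfl1 over wildtype, Cnga3-/- over wildtype and Pde6ccpfl1 over Cnga3-/-, with exact 95% intervals, lower bounds as open circles with arrows and the 5th to 95th percentile of all genes with at least 10 counts in grey. In both comparisons with wildtype Rora lies to the right of the grey band, at 3.13 and 2.58, though without the G05 well the second is 1.93 and inside it, and in the third all but Otx2 and Neurod1 lie within 1 of 0.

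Cone and rod regulators were counted in the same well in each library. Rora, present in most wells, is left out here. Thrb or Rxrg was counted in 14 Pde6ccpfl1 wells and 17 Cnga3-/- wells, against 5 wildtype wells. Nrl, Nr2e3 or Samd7 was counted in 23 of 61 and 30 of 70 mutant wells in the same order, against 11 of 52 in wildtype. Both kinds were counted in 5 of the 14 Pde6ccpfl1, 7 of the 17 Cnga3-/- and 1 of the 5 wildtype wells with Thrb or Rxrg, shares close to those of rod regulators over all wells. Nrl was seen beside Thrb or Rxrg in 0 of 6 Pde6ccpfl1, 1 of 4 Cnga3-/- and 0 of 2 wildtype wells that held it. At these depths most regulators were missed in most wells, and 15 of 61 Pde6ccpfl1, 20 of 70 Cnga3-/- and 30 of 52 wildtype wells held none of the 9 genes other than Rora. A cone marker was counted in 11 of the 12 Pde6ccpfl1 wells and 10 of the 12 Cnga3-/- wells with Crx, and in 56 of 61 and 60 of 70 wells of these libraries in all. Summed rod markers moved in the same direction as the summed regulators, with 229 counts in Pde6ccpfl1 and 313 in Cnga3-/-, against 106 in wildtype. No rod marker was at 0 in any library. Of 10 rod markers with at least 10 counts, 6 were at least 2-fold higher and 1 lower in Pde6ccpfl1 over wildtype, beside 15.5% and 17% of all genes. In Cnga3-/- over wildtype 6 of 10 were higher and 0 lower, beside 16.1% and 15.1%. Their part in the results was not tested.

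A list of 58 other regulators of retinal fate was, as a sum, at a like level in the 3 libraries. It summed to 446 counts in Pde6ccpfl1 and 506 in Cnga3-/-, against 437 in wildtype, with log2 ratios of -0.08 (-0.28 to 0.11) and -0.09 (-0.27 to 0.10) over wildtype. Of its members with at least 10 counts, 3 of 21 were at least 2-fold higher and 4 lower in Pde6ccpfl1, and 4 of 23 higher and 3 lower in Cnga3-/-. These counts are near the background over all genes with that minimum, of which 15.5% were higher and 17% lower in Pde6ccpfl1, and 16.1% higher and 15.1% lower in Cnga3-/-. Insm1, a zinc finger factor of neuroendocrine and photoreceptor precursors, had 16 counts in Cnga3-/-, against 34 in wildtype, and its log2 ratio was -1.38 (-2.34 to -0.49).

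The other nuclear receptors were, as a sum, at a like level in the 3 libraries apart from Nr3c1, while single receptors went in both directions. The 45 nuclear receptor genes outside the 10 summed to 299 counts in Pde6ccpfl1 and 390 in Cnga3-/-, against 360 in wildtype, with log2 ratios of -0.38 (-0.61 to -0.15) and -0.18 (-0.39 to 0.03) over wildtype. Of those with at least 10 counts, 3 of 17 were at least 2-fold higher and 2 lower in Pde6ccpfl1, and 5 of 20 higher and 2 lower in Cnga3-/-, beside the same background of 15.5% higher and 17% lower and of 16.1% and 15.1%. The glucocorticoid receptor Nr3c1 had 11 counts in Pde6ccpfl1 and 35 in Cnga3-/-, against 79 in wildtype, a log2 ratio of -2.96 (-4.02 to -2.04) and -1.47 (-2.09 to -0.88). Without it the other 44 summed to 288 counts in Pde6ccpfl1 and 355 in Cnga3-/-, against 281 in wildtype, with log2 ratios of -0.08 (-0.32 to 0.17) and 0.04 (-0.19 to 0.27), so that the lower sum in Pde6ccpfl1 rests on Nr3c1.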

How the data were processed

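The deposited values are counts of each gene in each well, not normalized. Per the submitters' processing notes, featureCounts and the build GRCh38 were used by the authors. That build is human while the gene symbols are mouse, and 98.1% of them were found in GENCODE M21 of GRCm38, which gave positions and exon lengths. The aligner, the features counted, the strand setting and the use of molecular identifiers are not given in the sources used here, so counts may not be independent molecules. Exons of Rora share 82 bases with the antisense gene Gm15511, Otx2 shares 154 with Otx2os1 and Nr2e3 shares 61 with Gm15507, and reads there cannot be told apart.

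Wells were assigned to libraries by the name in the column, and no column was left unmatched. Counts of the kept wells of a plate were added up and divided by their total. Ratios have an exact interval conditional on both counts. A library at 0 was set to 3 counts, and no ratio was formed where both had 3 counts or fewer. Wells were compared by Pearson correlation of log2(CPM + 100), centred per gene within each plate. The interval code was tested on simulated data. No doublet caller was run. Software was Python 3.11.15 with scipy 1.17.1, and edgeR 4.0.16 served for TMM factors. Alternatives were other scalings, well filters, thinning, the mean over wells, and leaving out deep wells or the highest well. Keeping only positions kept in all 3 plates, and leaving out position G05 or D01, were chosen after seeing the data.

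All 10 genes are named. Members of other lists are named where they had at least 50 counts over 2 libraries and differed at least 2-fold, except for results that are not reported here. The 10 genes and the lists were chosen with earlier results of these data known. Promoter windows are from RefSeq, and all 10 genes matched.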

Additional observations from a re-analysis of the deposited data

Results flagged for a closer look

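Rora was also counted in wells that the filter left out. The 10 Pde6ccpfl1 wells left out held 16 Rora counts of 8245, or 1941 CPM, spread over 6 wells, above the 364 CPM that 3 counts give there. The 6 Cnga3-/- wells left out held 1 count (211 CPM) and the 9 wildtype wells left out held 1 (139 CPM, below the 418 CPM that 3 counts give). The Pde6ccpfl1 value is close to the 1919 CPM of the kept wells.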

How the results depend on the processing

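Rora kept its direction in all 3 comparisons under each alternative run. Its log2 ratio for Pde6ccpfl1 over wildtype was 4.15 in thinned wells, 2.66 with the stricter well filter, 2.72 in positions kept in all 3 plates, 2.64 without position G05 and 2.67 without the highest well. For Cnga3-/- over wildtype it was 3.83, 1.96, 2.03, 1.93 and 1.97 in the same order, and 3.19 as the mean over wells of each well's CPM. For Pde6ccpfl1 over Cnga3-/- it was 0.33 in thinned wells and 0.34 as the mean over wells. Thinning and the mean over wells weigh shallow wells as much as deep ones. Both keep the G05 wells, where Rora was 7.54% of the counts in Pde6ccpfl1 and 8.59% in Cnga3-/-. Neither was run without G05. Leaving out the highest well drops the same G05 wells from the mutants, so it is not a separate check. The summed genes without Rora gave 2.34 in thinned wells and 2.05 without the 5 deepest wells for Pde6ccpfl1 over wildtype. They gave 2.11, 2.13 and, as the mean over wells, 2.06 for Cnga3-/- over wildtype, and 0.23 in thinned wells between the mutants, where the sign turned. In positions kept in all 3 plates the same sums were lower, at 1.03 for Pde6ccpfl1 over wildtype and 1.02 for Cnga3-/- over wildtype. Nrl in Cnga3-/- over wildtype turned to 0.68 without the 5 deepest wells, where it had 6 counts against 0. The well with 10 of the 11 wildtype counts is among those left out. In Pde6ccpfl1 over wildtype Nrl turned positive under 4 alternatives, at 0.25 to 2.45. The numbers of genes at least 2-fold higher were 1130 with a minimum of 10 counts, 35 with 200 and 80 in shared positions for Pde6ccpfl1 over wildtype, 1248, 35 and 78 for Cnga3-/- over wildtype, and 795 and 28 (10 and 200 counts) between the mutants. Those lower were 1238, 39 and 160, then 1166, 35 and 88, then 1111 and 21. The genes that passed in these settings numbered 7289, 327 and 1329 for Pde6ccpfl1 over wildtype, against 1600 in the main run. For Cnga3-/- over wildtype they numbered 7739, 330 and 1368, against 1723. Between the mutants they numbered 7850 and 337, against 1693, so the numbers of higher and lower genes have different totals. The cause of the other shifts was not tested. Other scalings shifted log2 ratios by at most 0.14. Crx could not be told from the limit of 3 counts after thinning, at 0.25 and 0.56 over wildtype. No paired analysis was possible because each genotype has 1 library. Depth limits the rarest genes, since Otx2, Nrl and Nr2e3 had at most 11 counts in a library and an interval that included 0 in every ratio formed from all kept wells.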

Other observations

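The genes next to the 10 regulators on their chromosomes went in both directions. The 3 nearest protein-coding genes on each side gave 60 neighbours, 59 of them in the table. Of those with at least 10 counts, 3 of 23 were at least 2-fold higher and 7 lower in Pde6ccpfl1 over wildtype, beside 15.5% and 17% of all genes. In Cnga3-/- over wildtype 3 of 25 were higher and 7 lower, beside 16.1% and 15.1%. Myo9a, an unconventional myosin gene next to Nr2e3, had 12 counts in Pde6ccpfl1 and 17 in Cnga3-/-, against 4 in wildtype. It was chosen after its values were seen, and the genes that follow had at least 50 counts over a mutant library and wildtype. Vps13c, a lipid transfer protein gene and the nearest neighbour of Rora on its lower side, had 37 counts in Pde6ccpfl1 and 33 in Cnga3-/-, against 65 in wildtype. Naa30, an acetyltransferase subunit gene near Otx2, had its log2 ratio at -2.14 in Pde6ccpfl1 and -1.12 in Cnga3-/- over wildtype. Peli2, a ubiquitin ligase gene near Otx2, stood at -1.49 and -1.12, and Phc3, a Polycomb gene near Samd7, had 19 counts in Cnga3-/-, against 31 in wildtype.

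No gene followed Rora closely from well to well. Among 637 genes counted in at least 30% of the wells of each library, the 5 with the highest mean Spearman correlation with Rora over the 3 libraries were G3bp2 at 0.26, Kat6b at 0.24, Brdt at 0.24, Gtf3c3 at 0.22 and Nprl3 at 0.21. These are weak values over 61 Pde6ccpfl1, 70 Cnga3-/- and 52 wildtype wells that share a library and its depth, and they are given as a description.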
